A study of Rattus norvegicus with 12 samples.

Results

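The EGF receptor family was examined through 10 genes in laser-captured bronchi of rats, 10 of 14217 genes with a probe set on the array. The members are the EGF receptor ligands Areg, Ereg, Hbegf, Tgfa, Btc and Egf, the neuregulin Nrg1, and the receptors Egfr, Erbb2 and Erbb3. They were chosen by gene symbol, and each was read from the probe set with the highest mean log2 signal over the 12 arrays.

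Ligands of this family are made as membrane proteins and are released by shedding enzymes such as Adam17 and Adam10. They bind EGF receptor or ErbB family partners on the same or neighbouring cells, the receptors pair, and the signal runs through Ras and ERK, PI3 kinase and Akt, and STAT proteins. In airway epithelium this system is known for driving repair after injury. Erbb2 binds no ligand of its own and serves as a partner, Erbb3 has a weak kinase and signals through its partners, and neuregulins bind Erbb3 and Erbb4.

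The study asked which genes change in bronchi that become fibrotic after inhalation of 2,3-pentanedione (PD), a butter flavoring diketone. Young male Wistar Han rats inhaled 200 ppm PD for 2 weeks or filtered air, and bronchial tissue of the right diaphragmatic lobe was captured from frozen sections by laser. There were 6 arrays of air-exposed control bronchi with normal wall (controls 1 to 6), 3 of fibrotic bronchi from PD-exposed rats (fibrotic 3, 7 and 9) and 3 of non-fibrotic bronchi from PD-exposed rats (non-fibrotic 4, 8 and 10). Fibrotic specimens were intraluminal fibrotic lesions with the wall beneath them, and non-fibrotic specimens were separate bronchi without fibrosis in sections that also held lesions, so both kinds had inhaled PD. By the study's methods, non-fibrotic bronchi came from rats that also gave lesions. The labels do not tie specimens to rats, and the comparison of fibrotic with non-fibrotic bronchi treats them as independent although some share a rat.

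Values are log2 of the MAS5 signal. A level of 6.52, the highest of 36 readings of bacterial tryptophan probe sets whose transcript was not added, served as the background, and a fold change against a group that lay wholly at or under it is given as a lower bound. A difference with a p-value under 0.01 after Benjamini-Hochberg adjustment is referred to as called. The specimens hold mixed cells. All 8 measured ciliated cell markers were called lower in fibrotic than control bronchi, and their summed log2 signal was 11.34 to 12.03 in fibrotic, 15.19 to 15.74 in control and 14.95 to 15.55 in non-fibrotic bronchi. Of 9 club cell markers 8 were called lower, while 6 of 10 macrophage markers and 6 of 12 fibroblast markers were called higher. Of the 10 general epithelial markers 3 were called lower and 1 higher, and their sum was 14.60 to 15.16 in fibrotic and 15.04 to 15.45 in control bronchi. Beside these counts, 4.13% of all genes were called higher and 8.38% lower in fibrotic than control bronchi. In tissue of this kind, fewer cells of a type and less RNA per cell cannot be told apart. Labels of controls 1 and 2 have the form of the exposed arrays and labels of controls 3 to 6 have another. Controls 1 and 2 differed from all other arrays in the poly-A control transcripts, whose mean lay under the background there and above it elsewhere. The poly-A mean was 2.32 on controls 1 and 2, 10.35 on controls 3 to 6, 9.36 on fibrotic and 10.77 on non-fibrotic arrays. The 3′ minus 5′ log2 signal of Gapdh, a sign of RNA integrity, averaged 1.60, 0.78, 1.87 and 2.19 in the same order.

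The promoters of Areg, Hbegf and Egfr are shown because these were the members with a called difference. Each line gives the 250 bases before the transcription start, from RefSeq on build GRCr8, 5′ to 3′ in the direction of the gene. Capitals mark the motifs found. The motifs searched on both strands were the cAMP response element TGACGTCA, the AP-1 site TGANTCA and the TATA box TATAAA, which do not overlap in these windows. The Areg window lies at chr14:17265642-17265891 on the minus strand, that of Hbegf at chr18:28390221-28390470 on the minus strand and that of Egfr at chr14:95378376-95378625 on the plus strand.
Areg promoter: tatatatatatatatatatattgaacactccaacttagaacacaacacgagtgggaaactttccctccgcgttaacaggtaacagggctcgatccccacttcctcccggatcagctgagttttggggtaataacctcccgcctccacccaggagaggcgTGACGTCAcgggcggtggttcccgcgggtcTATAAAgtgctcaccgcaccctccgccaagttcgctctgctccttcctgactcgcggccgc
Hbegf promoter: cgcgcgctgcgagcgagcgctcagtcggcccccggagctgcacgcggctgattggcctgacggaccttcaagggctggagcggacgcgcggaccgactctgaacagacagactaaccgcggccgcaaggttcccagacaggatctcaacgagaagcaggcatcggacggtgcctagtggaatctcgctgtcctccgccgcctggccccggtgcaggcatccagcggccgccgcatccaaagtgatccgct
Egfr promoter: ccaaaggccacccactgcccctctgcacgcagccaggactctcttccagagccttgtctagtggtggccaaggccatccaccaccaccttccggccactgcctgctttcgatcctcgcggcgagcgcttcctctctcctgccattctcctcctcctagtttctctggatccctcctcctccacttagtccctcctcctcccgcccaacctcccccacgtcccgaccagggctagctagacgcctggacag
The Areg window held a cAMP response element beginning 91 bases before the start and a TATA box beginning 61 bases before it. Of 7 members with a promoter in the table, Areg was the 1 with either motif, and 0 of 7 held the AP-1 site. Of 27457 rat promoters of the same length, 1.7% held the cAMP response element, 13.1% the TATA box and 6.36% the AP-1 site. These matches describe letters and not bound factors. In the RefSeq gene order, Btc, Areg and Ereg lie next to each other on chromosome 14, with 0 protein-coding genes between them.

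In fibrotic bronchi, the ligands Areg and Hbegf rose above air control bronchi, and no member was called lower. Areg was at least 5.43-fold higher and Hbegf 7.38-fold higher, or 3.82-fold with arrays under the background set to it, each with n = 3 against n = 6. The 2 called among 10 members stand beside 4.13% of all genes called higher and 8.38% called lower in this comparison. At an adjusted p under 0.05 the members were 6, with Ereg, Nrg1 and Egfr higher and Erbb2 lower in addition, beside 22.5% of all genes. The arrays of fibrotic bronchi all lay above every control for 5 members and all below for 1, where 15.1% and 13.4% of all genes did so. The median difference over the members was 0.96 on the log2 scale, and over all genes it was 0.10.

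**Figure D1:**
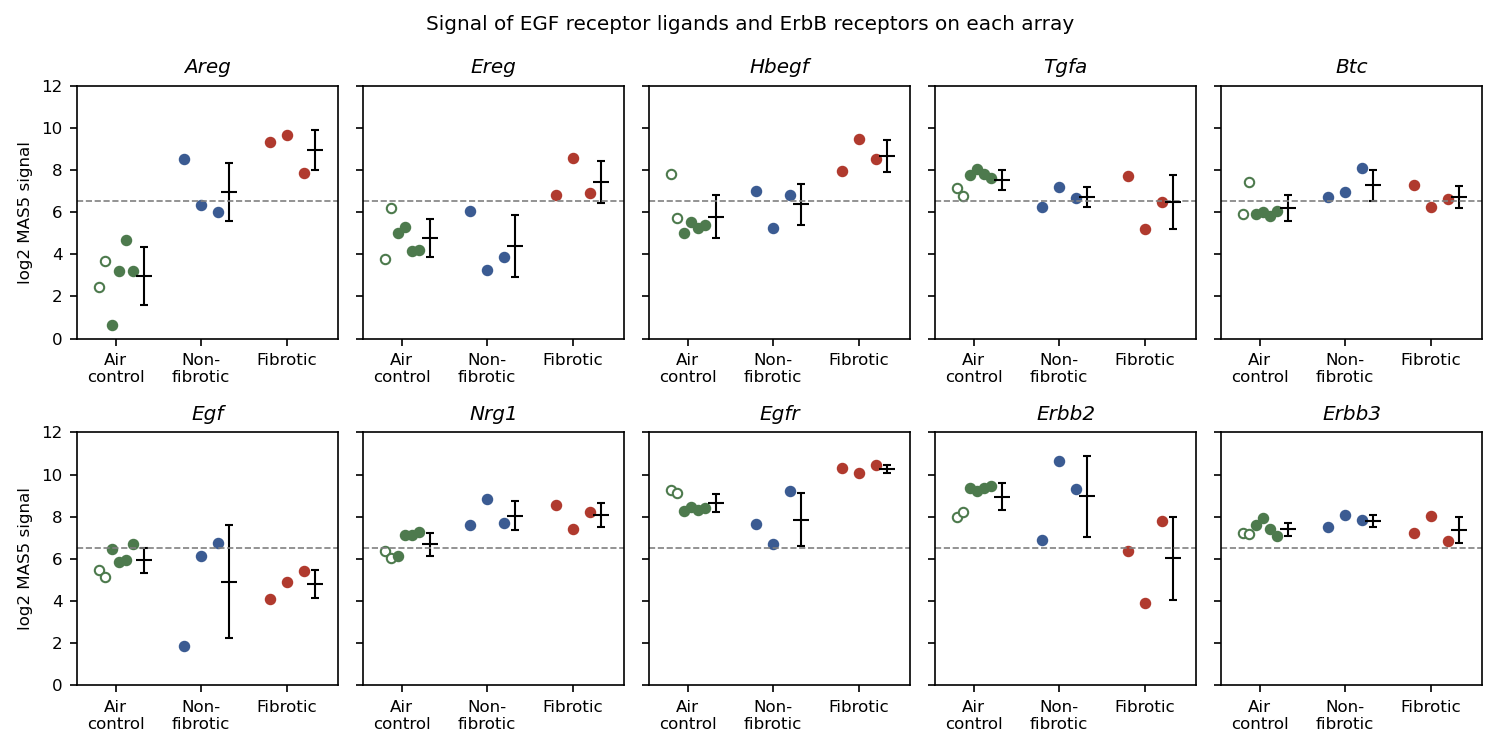
Log2 MAS5 signal (vertical axis) of the 10 members on each of the 12 arrays, by group. Points are arrays, open points are controls 1 and 2, the bars beside them show the mean and SD of the group, and the dashed line is the background level of 6.52. Areg was under the line on all 6 controls and between 7.87 and 9.68 on the fibrotic arrays, and Erbb2 on the fibrotic arrays lay below every control.

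Areg encodes amphiregulin, a low-affinity ligand of EGF receptor made by injured epithelium and by several immune cells. Its log2 signal was 0.63 at the lowest, 3.20 at the median and 4.70 at the highest control array. It was 9.33, 9.68 and 7.87 in fibrotic and 8.54, 6.35 and 6.01 in non-fibrotic bronchi. All 6 controls lay under the background, every exposed array lay above every control, and 1 non-fibrotic array overlapped the fibrotic ones. Fibrotic bronchi exceeded control bronchi by 5.98 ± 0.84 (SE) on the log2 scale with an adjusted p of 1.212e-04, and by at least 5.43-fold against the background. Non-fibrotic bronchi exceeded control bronchi by 3.99 ± 0.84, a difference with an unadjusted p of 2.231e-04 that was not called (adjusted p = 0.0187). Of the 3 non-fibrotic arrays 2 lay under the background themselves, and the bound against it was at least 1.36-fold. Fibrotic and non-fibrotic bronchi differed by 1.99 ± 0.97, with a 95% interval of -0.06 to 4.05 and an adjusted p of 0.232, so the arrays did not settle whether the level differed between them. With controls 1 and 2 alone Areg exceeded control by 5.90 in fibrotic bronchi (adjusted p = 0.00404), and with controls 3 to 6 alone by 6.02 (adjusted p = 5.053e-04).

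Hbegf encodes heparin-binding EGF-like growth factor, which is anchored at cell surfaces and matrix by heparan sulfate. The control arrays read 4.99 at the lowest, 5.47 at the median and 7.80 at the highest. Fibrotic bronchi read 7.98, 9.50 and 8.52, and non-fibrotic bronchi 7.02, 5.27 and 6.83. All fibrotic arrays lay above all controls, by a narrow margin over control 1, and the other 5 controls were under the background. The rise was 2.88 ± 0.64 on the log2 scale (adjusted p = 0.00518). With controls 1 and 2 alone it was 1.90 with an adjusted p of 0.266, and with controls 3 to 6 alone it was 3.37 with an adjusted p of 7.988e-04. With the set of arrays as a fixed block in the fit it was again 1.90 (adjusted p = 0.127). That fit takes the difference from controls 1 and 2, so it is no separate check of its size. With the set as a random block the rise was 2.61 (adjusted p = 0.0155). The call was also lost without any 1 of controls 3 to 6 or of the fibrotic arrays, at adjusted p-values between 0.0111 and 0.0429. Non-fibrotic bronchi differed from control by 0.59, with a 95% interval of -0.77 to 1.95. Fibrotic bronchi exceeded non-fibrotic bronchi by 2.29 ± 0.74, with no overlap of arrays but an adjusted p of 0.0633, which was not called. The summed macrophage markers, 14.96 to 15.69 in fibrotic, 14.33 to 14.87 in non-fibrotic and 13.57 to 14.21 in control bronchi, were highest in fibrotic bronchi. Of the 10 macrophage markers 6 were called higher in fibrotic than control bronchi, with a median difference of 3.00, while in non-fibrotic against control bronchi 0 were called by limma, 1 had an adjusted p under 0.05, and the median difference was -0.48. Their part in the values of Areg and Hbegf was not tested.

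Ereg encodes epiregulin, a ligand of EGF receptor and Erbb4, and its gene neighbours Areg. Control arrays lay between 3.77 and 6.20 with a median of 4.60. Fibrotic bronchi read 6.80, 8.57 and 6.93, and non-fibrotic bronchi 6.04, 3.25 and 3.89. The 3 fibrotic arrays were the ones above background, and all 9 others lay under it. Ereg was at least 1.89-fold higher in fibrotic than in control bronchi, and at least 1.89-fold higher than in non-fibrotic bronchi. The fitted differences of 2.67 ± 0.75 (adjusted p = 0.0219) and 3.04 ± 0.87 (adjusted p = 0.0371) were not called. The difference from control was called under 3 of 25 alternatives. These were a pseudocount of 16 (adjusted p = 0.00798), a floor at the 20th percentile (adjusted p = 0.00241) and array weights (adjusted p = 0.00819). Non-fibrotic bronchi stood at -0.37 from control, with a 95% interval of -1.97 to 1.22.

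The ligands Tgfa, Btc and Egf were not called in any of the 3 comparisons. Tgfa, transforming growth factor alpha, read 6.76 to 8.05 in control, 7.74, 5.20 and 6.51 in fibrotic and 6.25, 7.22 and 6.68 in non-fibrotic bronchi. The groups overlapped, and fibrotic bronchi stood at -1.04 from control with a 95% interval of -2.16 to 0.07. Its second probe set gave -1.67 with an adjusted p of 0.0465, also not called. Btc, betacellulin, lies next to Areg in the genome, and its groups overlapped where those of Areg in exposed and control bronchi did not. It read 5.81 to 7.43 in control, 7.30, 6.27 and 6.62 in fibrotic and 6.74, 6.98 and 8.10 in non-fibrotic bronchi, and its differences from control were 0.54 (95% interval -0.55 to 1.62) and 1.08 (-0.0039 to 2.17). Of the 6 controls 5 lay at or under the background. With arrays under the background set to it, the differences of Btc shrank to 0.14 in fibrotic and 0.60 in non-fibrotic bronchi. Egf, the founding ligand of the family, was under the background on all 3 fibrotic, 2 of 3 non-fibrotic and 5 of 6 control arrays, so these arrays hold little measure of it.

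Nrg1 encodes neuregulin 1, a ligand of Erbb3 and Erbb4, and both kinds of exposed bronchi gave close values. Its brightest probe set read 6.02 at the lowest, 6.76 at the median and 7.26 at the highest control. Fibrotic bronchi read 8.56, 7.43 and 8.21, and non-fibrotic bronchi 7.59, 8.84 and 7.69. Every exposed array lay above every control. The differences from control were 1.39 ± 0.46 in fibrotic (adjusted p = 0.0457) and 1.36 ± 0.46 in non-fibrotic bronchi (adjusted p = 0.0792), and neither was called. Both comparisons share the 6 controls. Fibrotic and non-fibrotic bronchi differed by 0.03, with a 95% interval of -1.09 to 1.14.

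Nrg1 has 8 probe sets on the array, which share a gene and the same arrays. All 8 differences between fibrotic and control bronchi were above 0, from 1.09 to 2.37, and 7 of 8 were above 0 in non-fibrotic bronchi, up to 2.62. An adjusted p under 0.05 was reached by 3 in fibrotic and 2 in non-fibrotic bronchi, and 0 were called by limma in either, where 17.9% and 5.83% of all probe sets reached that level. Exposed arrays all lay above control arrays for 4 probe sets in each comparison, as did 12.3% and 9.23% of all probe sets. The lowest adjusted p, 0.0103, came from the second brightest probe set, which lay at or under the background on all 6 controls and was at least 2.77-fold higher in fibrotic and at least 2.64-fold higher in non-fibrotic bronchi.

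**Figure D2:**
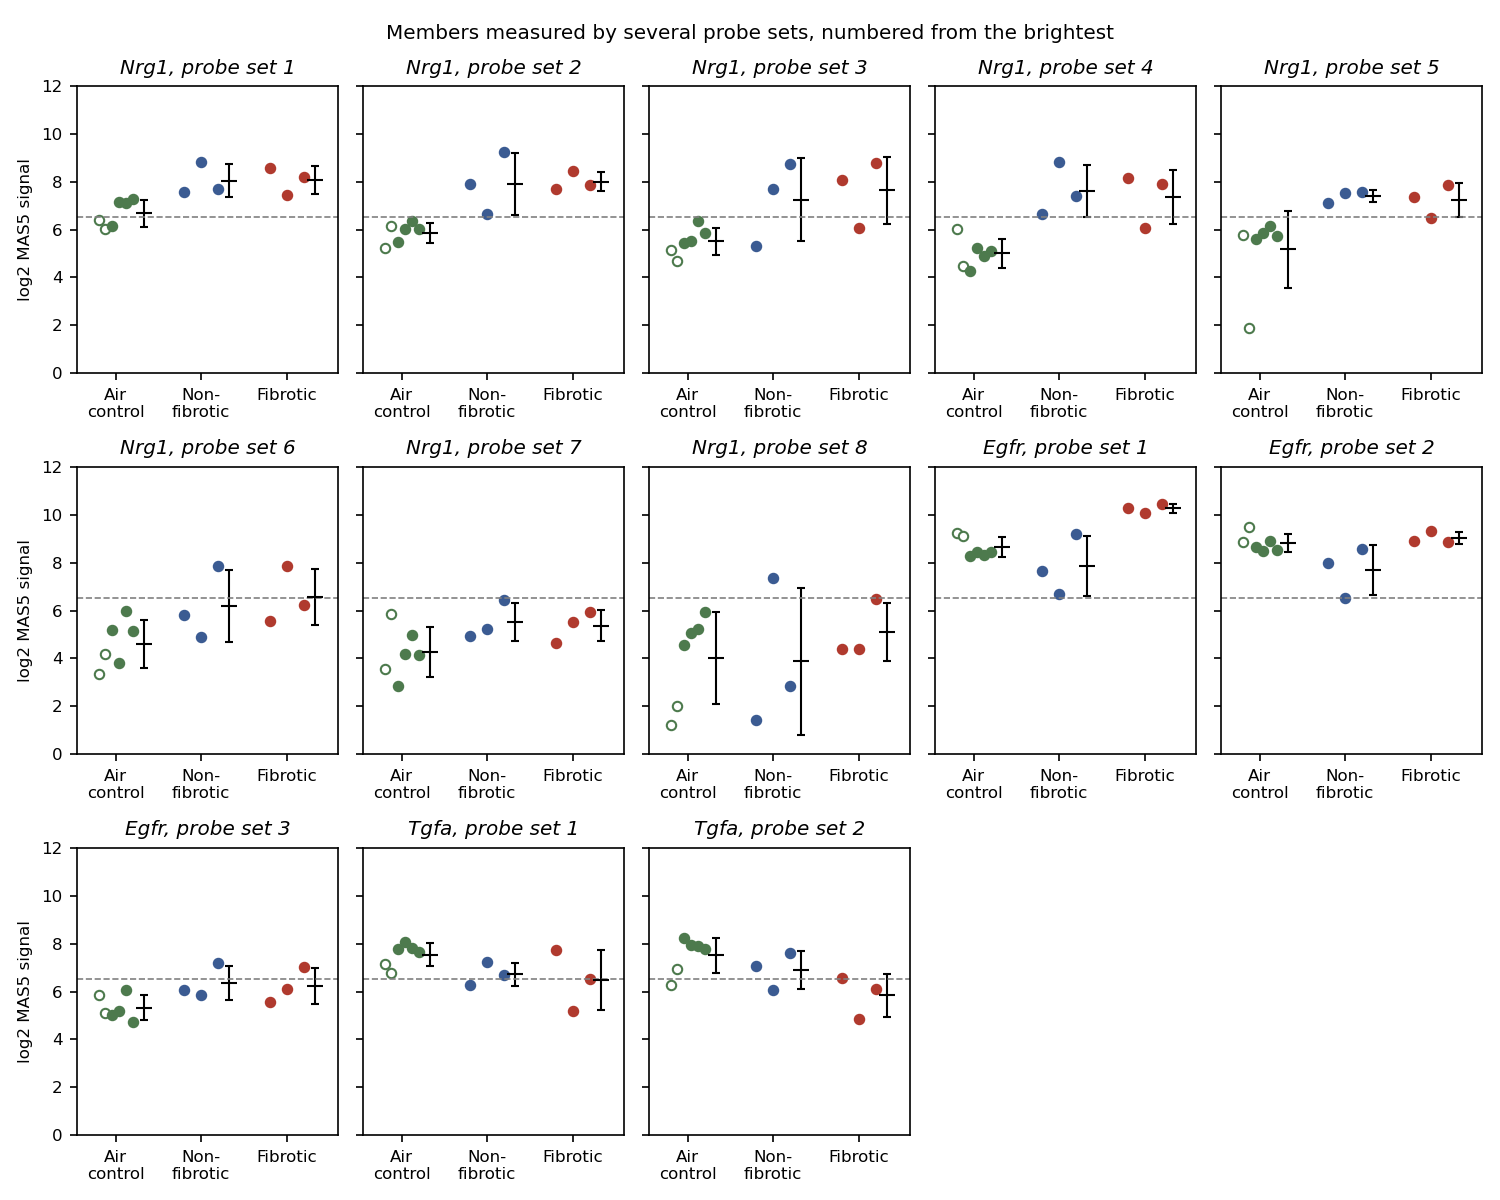
Log2 MAS5 signal (vertical axis) on each array for the 8 probe sets of Nrg1, the 3 of Egfr and the 2 of Tgfa, numbered from the brightest. Points are arrays, open points are controls 1 and 2, bars are mean and SD, and the dashed line is the background. For Nrg1 the dimmer probe sets lay mostly under the line in control bronchi, and for Egfr the separation of fibrotic from control arrays was seen on probe set 1 and not on probe set 2.

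Among the receptors, Egfr was called higher in fibrotic than in non-fibrotic bronchi, 5.39-fold. It was the 1 member called in that comparison, beside 1.47% of all genes called higher and 5.3% called in either direction. Egfr, the receptor for all 6 EGF-like ligands here, read 8.29 at the lowest, 8.44 at the median and 9.24 at the highest control array. Fibrotic bronchi read 10.30, 10.09 and 10.45, and non-fibrotic bronchi 7.66, 6.69 and 9.20. Fibrotic arrays were above all others, and non-fibrotic arrays spread from below the controls into their range. Fibrotic exceeded non-fibrotic bronchi by 2.43 ± 0.50 on the log2 scale, with an adjusted p of 0.00583. Fibrotic exceeded control bronchi by 1.64 ± 0.43 (adjusted p = 0.0147), and non-fibrotic bronchi stood at -0.80 ± 0.43 from control (adjusted p = 0.249), neither of them called. Of the 12 fibroblast markers 4 were called higher in fibrotic than in non-fibrotic bronchi, with a median difference of 1.86, and their summed log2 signal was 16.09 to 16.65 in fibrotic, 15.17 to 15.74 in non-fibrotic and 14.91 to 15.70 in control bronchi. Of the 11 basal and squamous epithelium markers 0 were called by limma in that comparison and 2 were higher at an adjusted p under 0.05. Their median difference was 2.15. Their summed log2 signal was 12.51 to 15.10 in fibrotic, 10.95 to 11.55 in non-fibrotic and 10.19 to 13.49 in control bronchi. The part of either list in the level of Egfr was not tested.

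The probe sets of Egfr were unequal in this. The second, of similar signal, gave 1.34 ± 0.45 between fibrotic and non-fibrotic bronchi (adjusted p = 0.0774) and 0.21 between fibrotic and control bronchi, with a 95% interval of -0.62 to 1.05. The third, mostly under the background, gave -0.14 and 0.91. The called difference thus rests on 1 of 3 probe sets. It was lost without any 1 fibrotic array or without non-fibrotic 4 or 8, with adjusted p-values of 0.0131 to 0.0253 and differences of 1.85 to 2.53. Controls 1 and 2 read 9.24 and 9.13 and the other controls 8.29 to 8.44. With controls 1 and 2 alone the difference between fibrotic and control bronchi was 1.09 with an adjusted p of 0.401, and with controls 3 to 6 alone it was 1.91 and called, with an adjusted p of 0.00835.

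Erbb2 encodes the ligand-less partner receptor and was the member with the lowest fitted difference in fibrotic bronchi. Its log2 signal was 8.00 at the lowest, 9.28 at the median and 9.48 at the highest control. Fibrotic bronchi read 6.35, 3.89 and 7.80, and non-fibrotic bronchi 6.90, 10.66 and 9.33. All fibrotic arrays lay below all controls, 2 of them under the background, while non-fibrotic arrays reached both above and below the controls. The difference from control was -2.93 ± 0.78 with an adjusted p of 0.016, or 4.0-fold lower with arrays under the background set to it, and it was not called. Fibrotic bronchi stood at -2.95 ± 0.91 from non-fibrotic bronchi (adjusted p = 0.0514), also not called. Beside these values stand the ciliated cell markers, whose sums in fibrotic bronchi were below those of all other arrays. Their part in the level of Erbb2 was not tested. With controls 1 and 2 alone the difference from control was -2.11 with an adjusted p of 0.388, and with controls 3 to 6 alone it was -3.34 with an adjusted p of 0.0142. The difference from control was called under 5 of 26 alternatives. Among them were array weights (adjusted p = 9.562e-04) and only the 2 groups in the fit (adjusted p = 0.00803).

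Erbb3 was the most even member, with an SD of 0.40 over the 12 arrays, where the SD of Areg was 2.95. It read 7.09 to 7.91 in control, 7.24, 8.04 and 6.84 in fibrotic and 7.51, 8.08 and 7.84 in non-fibrotic bronchi. The groups overlapped. Fibrotic bronchi stood at -0.02 from control, with a 95% interval of -0.83 to 0.78, which leaves room for a change of less than 1 on the log2 scale in either direction.

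**Figure D3:**
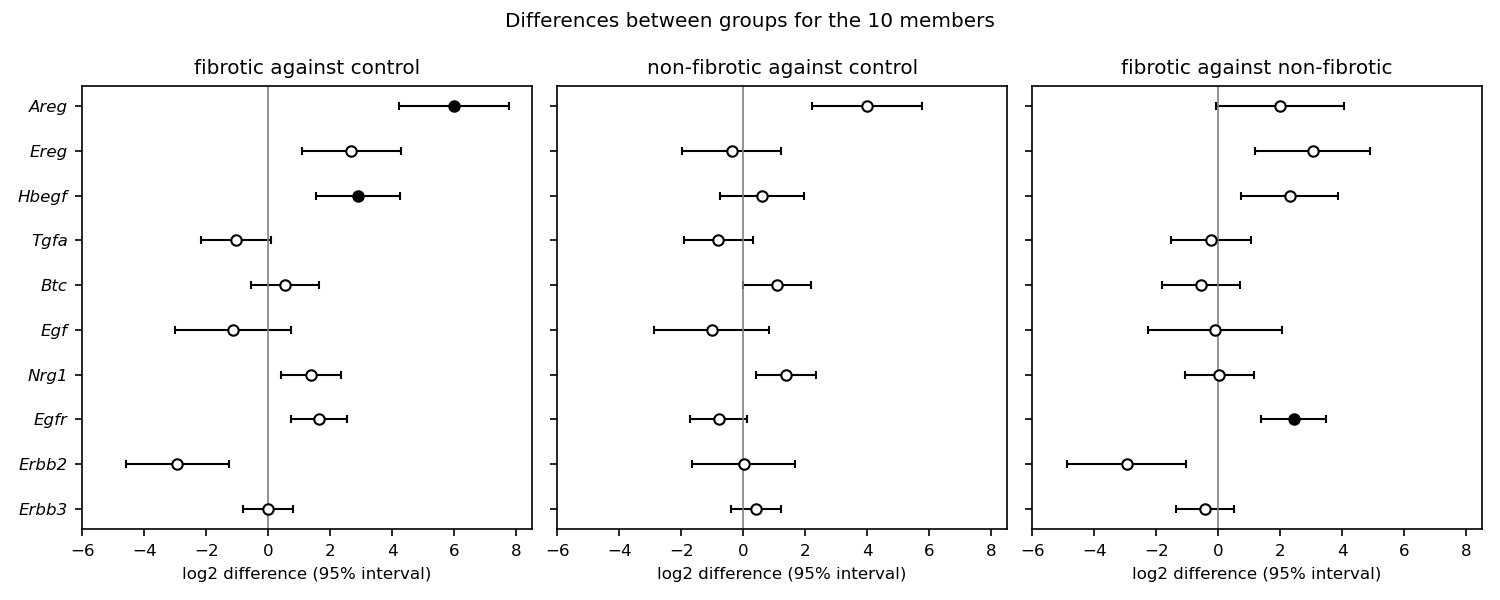
Log2 difference (horizontal axis) between groups for each of the 10 members in the 3 comparisons, with the 95% interval of the limma fit. Filled points were called at an adjusted p under 0.01: Areg and Hbegf between fibrotic and control bronchi and Egfr between fibrotic and non-fibrotic bronchi. No member was called between non-fibrotic and control bronchi.

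In non-fibrotic against control bronchi, 0 of 10 members were called by limma, beside 0.619% of all genes. At an adjusted p under 0.05 there was 1, Areg, beside 6.56%. At an unadjusted p under 0.05 there were 2, Areg and Nrg1, beside 27.7% of all genes, and for these 2 members every non-fibrotic array lay above every control, as it did for 8.4% of all genes. The median difference was 0.21 over the members and 0.00 over all genes. Between fibrotic and non-fibrotic bronchi, 4 members had an unadjusted p under 0.05 (Egfr, Ereg, Hbegf and Erbb2), beside 27.2% of all genes, and 2 of them, Egfr and Ereg, an adjusted p under 0.05, beside 12.6%. Egfr, Ereg and Hbegf were the 3 members whose fibrotic arrays all lay above the non-fibrotic ones, beside 14.1% of all genes.

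Of the 5 family genes outside the members, 3 were measured and 0 were called by limma in the 3 comparisons. Erbb4, the neuregulin receptor, read 1.11, 4.90 and 2.06 in non-fibrotic, 4.26, 5.16 and 4.05 in fibrotic and 5.13 to 8.54 in control bronchi. All exposed arrays and 4 of the 6 controls lay under the background, so the readings of Erbb4 in exposed bronchi have no order. The difference of non-fibrotic from control bronchi was -3.63 (unadjusted p = 7.91e-04, adjusted p = 0.0295) and shrank to -0.34 with arrays under the background set to it. Nrg4, another Erbb4 ligand, read 6.56 to 7.60 in control and 3.25, 5.41 and 4.09 in fibrotic bronchi, a level at least 1.63-fold lower that was not called (adjusted p = 0.0411). Non-fibrotic bronchi were split, with 7.52, 1.97 and 7.25. Nrg2 differed from control by -0.23 in fibrotic and -0.30 in non-fibrotic bronchi.

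The pathway around the receptors held 87 measured genes with the 3 above. In fibrotic against control bronchi 11 were called higher and 3 lower, 16.1% beside 12.5% of all genes, and their median difference was 0.64. In non-fibrotic against control bronchi 2 were called higher and 1 lower, 3.4% beside 0.619% of all genes. In fibrotic against non-fibrotic bronchi 2 were called higher and 2 lower, 4.6% beside 5.3%. The pathway genes named next were the called ones of smallest p in each list, and many of these calls depend on the set of control arrays, an alternative applied to them after their values were seen. In fibrotic against control bronchi 12 were named, of which 2 (Egr2 and Adam8) were called with controls 1 and 2 alone, 10 with controls 3 to 6 alone (all but Plaur and Adam17), 3 with the set of arrays as a fixed block (Egr2, Adam8 and Lrig1) and 10 with it as a random block (all but Phlda1 and Errfi1). In non-fibrotic against control bronchi 3 were named, of which 0 were called by limma with controls 1 and 2 alone and 1, Adam8, with the fixed block. The fixed block takes differences from control out of controls 1 and 2, so these settings give the same differences with another estimate of the spread.

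Among 11 genes of ligand shedding, 2 were called higher and 1 lower in fibrotic than control bronchi, beside 4.13% and 8.38% of all genes. Adam17, the main sheddase of Areg, Hbegf and Tgfa, rose by 1.02 ± 0.24 (adjusted p = 0.00758), from a mean of 10.13 to 11.15. Adam19, a sheddase of neuregulins, rose by 2.61 ± 0.53 (adjusted p = 0.00286), and with controls 1 and 2 alone it stood at 1.61 (adjusted p = 0.133). Adam8, a metalloproteinase of the same family, fell by 4.11 on the log2 scale in fibrotic (adjusted p = 9.838e-09) and by 2.12 in non-fibrotic bronchi (adjusted p = 2.637e-04). Its 3 fibrotic arrays, 9.20, 8.87 and 8.40, lay below the non-fibrotic ones, 10.88, 10.67 and 10.89, and these lay below the controls, which read 12.59 to 13.34. Fibrotic and non-fibrotic bronchi differed by -1.99 with an adjusted p of 1.105e-04. These values are of the brightest probe set of Adam8. Over the alternatives its difference from control was -4.30 to -2.03 in fibrotic and -2.20 to -1.24 in non-fibrotic bronchi. Between fibrotic and non-fibrotic bronchi it was -2.18 to -0.80. With the mean of its probe sets, Adam8 was called in fibrotic against control bronchi and not in the other comparisons. The median difference of the list in fibrotic bronchi was -0.14.

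Of 14 adaptor and Ras to ERK genes 1 was called in fibrotic against control bronchi, the small GTPase Nras, which rose by 0.89 ± 0.20 (adjusted p = 0.00561), and 4 were higher and 1 lower at an adjusted p under 0.05. The shares of all genes at these levels were 12.5% and 22.5%. Of 13 genes of the PI3 kinase, Akt and STAT relay 0 were called by limma in any comparison, and 1 had an adjusted p under 0.05 between fibrotic and non-fibrotic bronchi. Arrays measure the transcripts of these proteins and not their phosphorylation.

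Of 22 genes of receptor degradation and feedback inhibition, 4 were called higher and 2 lower in fibrotic than control bronchi. Of all genes, 4.13% were called higher and 8.38% lower in that comparison. Cbl, the ubiquitin ligase that sends activated EGF receptor to degradation, rose by 1.63 ± 0.27 in fibrotic (adjusted p = 6.127e-04) and by 1.54 ± 0.27 in non-fibrotic bronchi (adjusted p = 0.00912). With controls 1 and 2 alone these differences were 1.02 (adjusted p = 0.0811) and 0.93 (adjusted p = 0.267). The call of Cbl held under 24 of 26 alternatives in fibrotic and under 9 of 26 in non-fibrotic bronchi. In non-fibrotic bronchi its difference ran from 0.34 to 1.85 over the alternatives, and the call was lost with the mean of its probe sets. Dusp7, an ERK phosphatase, rose by 1.95 ± 0.37 (adjusted p = 0.00164), and Errfi1, an inhibitor of the EGF receptor kinase, by 1.27 ± 0.28 (adjusted p = 0.0052). Lrig1, a transmembrane inhibitor that lowers ErbB receptor levels, fell by 1.81 against control (adjusted p = 7.702e-05) and was -1.64 from non-fibrotic bronchi (adjusted p = 0.00162). Socs5, which promotes EGF receptor degradation, was 1.78 ± 0.34 higher in fibrotic than non-fibrotic bronchi (adjusted p = 0.00338). The inhibitors thus did not move one way.

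Of 24 transcripts that depend on ERK, 4 were called higher and 0 lower by limma in fibrotic bronchi, where 9 were higher and 0 lower at an adjusted p under 0.05, and the median difference was 1.03. Of all genes 4.13% were called higher and 10.0% were higher at an adjusted p under 0.05. The list was chosen with earlier results of these data known, so these shares describe it and do not test it. Egr2, an early growth response transcription factor, rose by 4.11 ± 0.57 against control (adjusted p = 1.042e-04) and by 3.79 ± 0.65 against non-fibrotic bronchi (adjusted p = 0.00183). Plaur, the urokinase receptor, was under the background on all 6 controls and rose by at least 2.26 on the log2 scale (adjusted p = 0.0066). The transcription factor Klf6 rose by 1.12 ± 0.20 (adjusted p = 0.00103). Phlda1 rose by 2.28 ± 0.56 (adjusted p = 0.00979). With controls 1 and 2 alone Phlda1 stood at 0.83 from control (adjusted p = 0.368), and with controls 3 to 6 alone at 3.00 (adjusted p = 1.381e-04). The fixed block, which rests on controls 1 and 2 for this difference, gave the same 0.83 (adjusted p = 0.281). Ccnd1, cyclin D1, which carries cells into the division cycle, was called in non-fibrotic bronchi, where it rose by 1.66 ± 0.22 (adjusted p = 0.00177). Over the alternatives the rise of Ccnd1 ran from 0.85 to 1.86. Its call held under 20 of 26 and was lost with the mean of its probe sets. The transcripts of this list also answer to other receptors than those of the ErbB family. Macrophage and fibroblast markers rose in the fibrotic arrays, while 0 of either list were called by limma in non-fibrotic against control bronchi. The part of these cells in the values of the list was not tested.

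**Figure D4:**
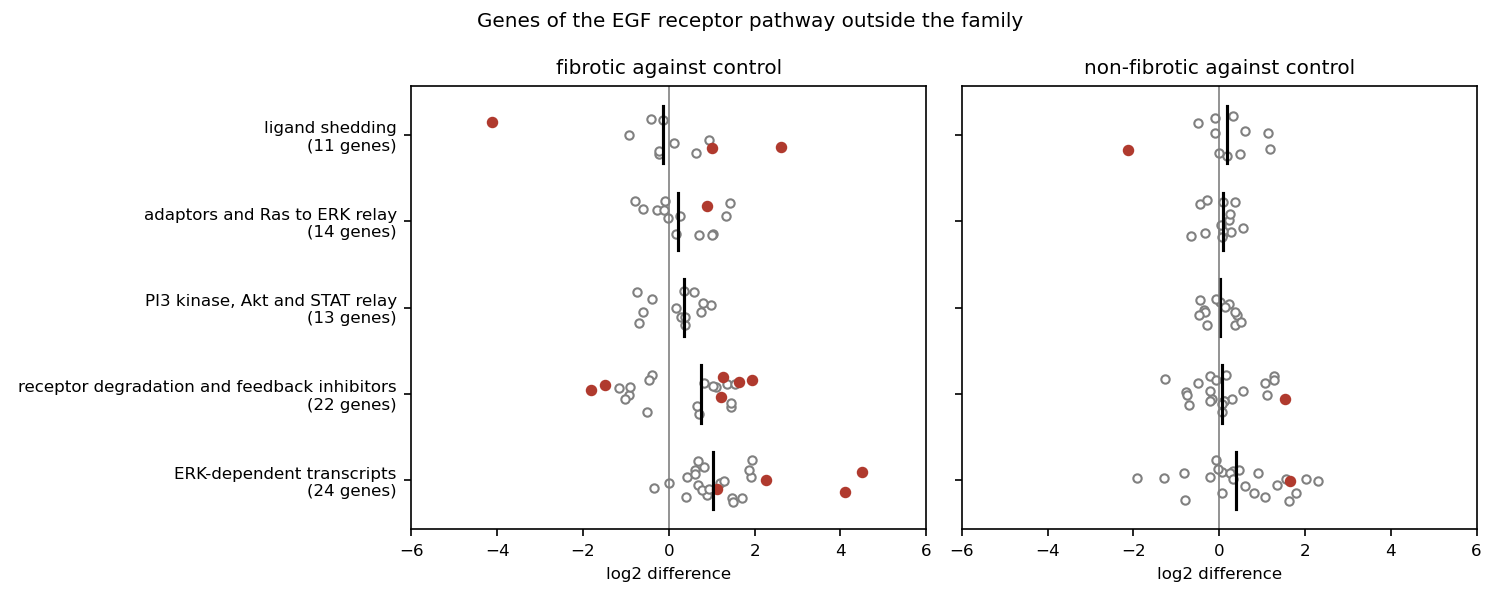
Log2 difference (horizontal axis) of each measured gene of 5 pathway lists in fibrotic against control and non-fibrotic against control bronchi. Filled points were called at an adjusted p under 0.01, open points were not, and vertical bars are list medians. The ERK-dependent transcripts had a median of 1.03 in fibrotic bronchi, and Adam8 is the called gene furthest to the left in both panels.

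The genes whose levels most resembled Areg, the ligand with the largest SD, were Acsl4 (r = 0.93), Tnpo2 (r = 0.92), Asic4 (r = 0.92), Caprin1 (r = 0.92) and Nup155 (r = 0.91), by Pearson correlation over the 12 arrays. Areg lay under the background on all 6 controls and 2 of 3 non-fibrotic arrays, so its SD and these correlations rest in part on readings that have no order. The group means of Asic4 itself, 1.56 in control, 4.97 in fibrotic and 3.23 in non-fibrotic bronchi, all lay under it. For Erbb2, the receptor with the largest SD, they were Wnt4 (r = 0.97), Wdr47 (r = 0.96), Tbc1d32 (r = 0.95), the pseudogene Srsf7-ps4 (r = 0.95) and Arhgap12 (r = 0.94). Erbb2 lay under the background on 2 of 3 fibrotic arrays, so its correlations also rest in part on such readings. The fibrotic means of Tbc1d32 (5.71) and Srsf7-ps4 (5.49) lay under it as well. The 12 arrays share the 3 groups, so a difference between groups adds to each of these correlations, which were the highest of 14217 genes.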

How the data were processed

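Bronchial tissue captured by laser from 12 specimens was amplified and hybridized by the authors to Affymetrix rat 3′ arrays. The deposited intensity values are MAS5 signals on a linear scale, which the authors had brought to a 2% trimmed mean of 500.1 to 500.2 on every array. No detection calls are used here. Of 31099 probe sets 57 are Affymetrix controls. Of the 31042 tested, 20826 have 1 gene symbol in the array annotation, 436 have several and were assigned to no gene, and 9780 have none.

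Groups were taken from the labels. Signals were taken to log2 with no pseudocount and no filter. The 3 groups were compared in a single limma 3.58.1 model under R 4.3.3 (lmFit and trended eBayes), since the error weights of the authors' ANOVA are not part of these values. P-values were adjusted by Benjamini-Hochberg within a comparison over all 31042 probe sets, and a probe set was called at an adjusted p under 0.01. Shares of all genes are over 14217 genes, each read from its probe set with the highest mean. The script was tested on simulated data. Standard errors and 95% intervals are those of the fit. No depth applies to arrays: precision is limited by their number and by the background. Labels do not tie exposed specimens to rats, so p-values treat specimens as independent although some share a rat.

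The members, the pathway lists and the marker lists were chosen with earlier results of these data known. Named genes are all members, all measured family genes, up to 4 called genes of smallest p in each pathway list and comparison, and the 5 genes most correlated with the most variable ligand and receptor. Motifs were searched in the RefSeq promoter table of build GRCr8. Alternatives changed the normalization, pseudocount, floor, filter, variance model, threshold, probe set, arrays in the fit and set of arrays.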

Additional observations from a re-analysis of the deposited data

Results flagged for a closer look

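In control bronchi, Hbegf on control 1 read 7.80, and its gap to the next control was 0.738 of the range of the 6 controls, more than the limit that Dixon's test sets for 6 samples. Btc on control 2 read 7.43, with a gap of 0.848 of the range, also past it. Gaps past that limit, of whatever size, arise by chance in about 1 of 20 groups, and 10 members were examined in the controls. For both genes the other 5 controls lay at or under the background. The range thus holds readings that have no order. Egfr differed between both kinds of exposed bronchi by 2.43 (adjusted p = 0.00583), the test of that difference itself, with means of 10.28 in fibrotic, 7.85 in non-fibrotic and 8.65 in control bronchi.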

How the results depend on the processing

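Areg was called in fibrotic against control bronchi under all 25 alternatives that held it, with differences of 4.08 to 6.53. Hbegf was called under 14 of 25 and Egfr between fibrotic and non-fibrotic bronchi under 16 of 26. The count of called members in fibrotic against control bronchi was 2. It was 6 at an adjusted p under 0.05, 5 with array weights, 4 with only the 2 groups in the fit, and 1 with no intensity trend, with controls 1 and 2 alone, and with the set of arrays as a fixed or as a random block. It was 0 when the lowest 40% of probe sets were dropped, which removes Areg and Hbegf themselves. Ereg was called in addition with a pseudocount of 16 and with a floor at the 20th percentile. Egfr was called in addition with median centring and with controls 3 to 6 alone. Leaving out 1 array gave 1 to 4 called members. In non-fibrotic against control bronchi the count of 0 became 1, Areg, at an adjusted p under 0.05 or at an unadjusted p under 0.001 with a fold change over 2, and leaving out 1 array gave 0 to 0. Between fibrotic and non-fibrotic bronchi the count of 1 became 2 at an adjusted p under 0.05 and 0 with no intensity trend, array weights, only the 2 groups, controls 1 and 2 alone, or the mean of probe sets. Leaving out 1 array gave 0 to 2, the latter (Ereg and Erbb2) without non-fibrotic 4. The cause of these shifts was not tested.

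Some differences that were not called changed sign. In fibrotic against control bronchi, Erbb3 was 0.043 with median centring, 0.18 with controls 1 and 2 alone and with the fixed block, and 0.0332 with the random block, and -0.36 to 0.24 with 1 array left out. In non-fibrotic against control bronchi, Ereg was 0.25 and Egf 0.16 with the floor, Hbegf was -0.39 with controls 1 and 2 alone and with the fixed block, and Erbb2 was -0.0325 with quantile normalization, -0.0004 with median centring, -0.68 with array weights and -0.40 with controls 3 to 6 alone. With 1 array left out, Ereg there was -1.19 to 0.20, Egf -1.94 to 0.51 and Erbb2 -0.83 to 1.05. Between fibrotic and non-fibrotic bronchi, Egf was 0.18 with quantile normalization and 0.21 with array weights. With 1 array left out Egf was -1.64 to 0.82, Nrg1 -0.22 to 0.43 and Tgfa -0.86 to 0.41.

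For the named pathway genes, the same alternatives were applied after seeing the data. Of their 19 called differences 2, Adam8 and Egr2 in fibrotic against control bronchi, were called under all, and the others lost the call under 1 to 18 of the alternatives, while 0 changed sign. With the mean of probe sets, Nras and Phlda1 lost the call in fibrotic against control bronchi. Adam8, Cbl and Ccnd1 lost it in non-fibrotic against control bronchi, and Adam8, Egr2 and Socs5 between fibrotic and non-fibrotic bronchi. Leaving out 1 array ended 12 calls, at adjusted p-values of 0.0102 to 0.0741. In fibrotic against control bronchi these were Dusp7 and Klf6 (without fibrotic 7), Adam19 (fibrotic 7 or 9), and Adam17, Errfi1, Nras, Phlda1 and Plaur (any of several fibrotic or control arrays). They were Ccnd1 (non-fibrotic 8 or 10) and Cbl (most arrays) in non-fibrotic against control bronchi, and Egr2 (fibrotic 7, non-fibrotic 8 or 10) and Socs5 (fibrotic 3 or 7, non-fibrotic 8) between fibrotic and non-fibrotic bronchi.

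No paired analysis was possible because the groups compared share fewer than 2 replicate numbers and the labels do not tie exposed specimens to rats. Signal over background limits Areg, Ereg, Hbegf, Btc and Egf in control bronchi, where fold changes are bounds or shrink with the floor. It limits Nrg1 in part, as its brightest probe set lay at or under the background on 3 of 6 controls.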
